A study of Arabidopsis thaliana with 12 samples.

Results

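The LONELY GUY (LOG) genes encode the enzymes that turn inactive cytokinin nucleotides into active cytokinin in a single step. The genes LOG1, LOG2, LOG3, LOG4, LOG5, LOG7 and LOG8 of Arabidopsis were taken by their gene identifiers, 7 of the 33557 features in the table of cultured root explants. LOG1 (AT2G28305), LOG2 (AT2G35990) and LOG3 (AT2G37210) lie on chromosome 2, LOG4 (AT3G53450) on chromosome 3, LOG5 (AT4G35190) on chromosome 4, and LOG7 (AT5G06300) and LOG8 (AT5G11950) on chromosome 5, and all 7 are annotated as protein-coding. Total RNA of explants was sequenced, and the study compared genotypes and media to see what each does to the transcripts of roots that are led to form shoots. The 12 samples form 4 groups of 3. The wild type was Col-0 gl1, and the other genotype is called CPL4RNAi in the sample titles and CPL4 KO in the genotype field. The promoter of the construct and the number of lines are not given in the sources used here. Shoots were cut from seedlings 10 days old, the root segments were kept on callus-inducing medium (CIM) for 5 days, and they were moved to shoot-inducing medium (SIM) for 72 hours. This medium held either 0.05 mg/L of the cytokinin 2iP or 0 mg/L, so that all 4 groups had the same CIM step and were harvested at an age of 18 days.

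Cytokinins are made first as nucleotides by isopentenyltransferases, and a LOG enzyme removes the ribose phosphate to free the active base. The base is bound by histidine kinase receptors and is later degraded by cytokinin oxidases or stored as a glucoside, so that the LOG step stands between synthesis and signalling. In the Arabidopsis root, LOG3 and LOG4 are known as targets of the transcription factor pair TMO5 and LHW in young xylem, and LOG4 and LOG7 are known from the shoot meristem.

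The 7 genes are printed first across the glycine-rich stretch that marks the LOG family. For each gene the longest coding sequence that encodes this signature was taken, so that all 7 carry it was set by that choice. Each line is coding DNA, 5′ to 3′, and the capitals mark the 27 bases that encode the signature.
LOG1: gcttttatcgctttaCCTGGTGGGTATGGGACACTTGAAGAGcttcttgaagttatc
LOG2: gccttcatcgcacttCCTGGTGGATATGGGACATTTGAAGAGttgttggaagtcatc
LOG3: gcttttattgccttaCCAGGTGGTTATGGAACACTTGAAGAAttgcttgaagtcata
LOG4: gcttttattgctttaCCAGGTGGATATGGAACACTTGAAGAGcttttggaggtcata
LOG5: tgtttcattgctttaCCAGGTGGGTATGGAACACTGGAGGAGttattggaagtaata
LOG7: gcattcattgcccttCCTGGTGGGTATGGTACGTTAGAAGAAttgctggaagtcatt
LOG8: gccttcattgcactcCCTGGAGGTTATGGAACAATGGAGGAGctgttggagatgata
These stretches were read from RefSeq, assembly TAIR10.1, and each spans an intron that is not printed: LOG1 chr2:12083366-12083525 (+ strand), LOG2 chr2:15115514-15115694 (+ strand), LOG3 chr2:15624671-15625550 (- strand), LOG4 chr3:19813426-19814319 (- strand), LOG5 chr4:16747319-16747541 (+ strand), LOG7 chr5:1922913-1923075 (- strand), LOG8 chr5:3856063-3856202 (+ strand). Of the 27 capital positions, 18 held the same base in all 7 genes, and part of these are fixed by the search for the signature. All 7 genes had 7 coding exons, a coding length between 642 bases (LOG1 and LOG2) and 687 bases (LOG5), and an intron after the 4th base of the capitals. This intron had 823 bases in LOG3 and 837 in LOG4, against 83 to 166 in the other 5. LOG3 and LOG4 were also the closest pair over the whole coding sequence, with 87.7% identity in a global alignment, and LOG2 and LOG5 the most distant, with 66.3%. The longest run of coding bases that LOG3 and LOG4 share exactly was 41, shorter than the reads of 125 nt. Whether any reads were assigned to the wrong gene of this pair was not tested.

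The values are group FPKM, fragments scaled to transcript length and library size, as the authors deposited them, and no value is given for any of the 3 replicates alone. A difference counted as called at a q-value (an adjusted p-value) of 0.05 or less in the authors' deposited table. The SE beside a log2 fold is the one its deposited p-value implies, and where that p stands at its floor of 5e-05 only the largest possible SE can be given. Depth per library is unknown, and between 18155 and 18486 features reached at least 1 FPKM in any given group. The FPKM of CPL4, the targeted phosphatase gene, went against the label: it was 14.5 and 13.9 in wild type without and with cytokinin, and 36.3 and 32.2 in the groups labelled CPL4RNAi, where it was called higher in both media. Whether transcripts of the construct itself were counted in these values was not tested. Every direction between genotypes below is therefore that of the groups as labelled. The 7 root markers examined all had more than 1 FPKM in every group, with sums of 305.3 and 252.6 FPKM in wild type and 202.6 and 140.9 in the groups labelled CPL4RNAi. WOX5 carried most of this difference, with 155.1 and 135.1 against 55.2 and 41.2 FPKM. In each medium 3 of the 7 were called lower under that label and CASP1 was called higher, with a median log2 fold of −0.05 without cytokinin and −0.02 with it. Of all tested features, 21.5% were called lower and 22.5% higher without cytokinin, and 24.7% each with it. Markers of other cell types were read as well: the summed xylem markers (6 genes) stood at 6.73 and 39.1 in wild type and at 74.3 and 48.2 in the groups labelled CPL4RNAi, and the shoot meristem markers (5 genes) at 12.5 and 13.3 against 68.9 and 78.6. WUS was listed at 0 in both wild-type groups. The 2 leaf mesophyll markers summed to less than 1 FPKM in each group. In such bulk samples, fewer cells of a type and less RNA per cell cannot be told apart.

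LOG1, the lowest of the detected genes, had 2.45 FPKM in wild type without cytokinin, 2.41 with it, 0.991 in CPL4RNAi without it and 0.364 with it. The wild-type values lay together and the groups labelled CPL4RNAi were lower. LOG3 had, in the same order of groups, 29.7, 16.9, 26.1 and 15.0 FPKM, and its close relative LOG4 had 14.8, 8.97, 13.4 and 5.72 FPKM. Both were lower in the 2 groups with cytokinin than in the 2 groups without it. LOG5 had 14.8 and 17.2 FPKM in wild type, and 1.36 and 2.22 in the groups labelled CPL4RNAi. It was the one LOG gene whose level was higher with cytokinin than without it in both genotypes, and its genotypes stood far apart. LOG7 had 13.7, 11.3, 13.7 and 7.37 FPKM, so that only the group labelled CPL4RNAi with cytokinin stood well below the rest. LOG8 had 20.7, 18.4, 14.96 and 13.98 FPKM, the narrowest range of the detected LOG genes, with 1.48-fold between its highest and lowest group. LOG2 was listed at 0 in 3 groups and had 0.0623 FPKM in the group labelled CPL4RNAi without cytokinin, and it was not tested by the authors in any comparison. Of the 7 genes, 6 were therefore tested. The table also names LOG6 and LOG9, which were listed at 0 or had under 0.1 FPKM in every group.

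**Figure D1:**
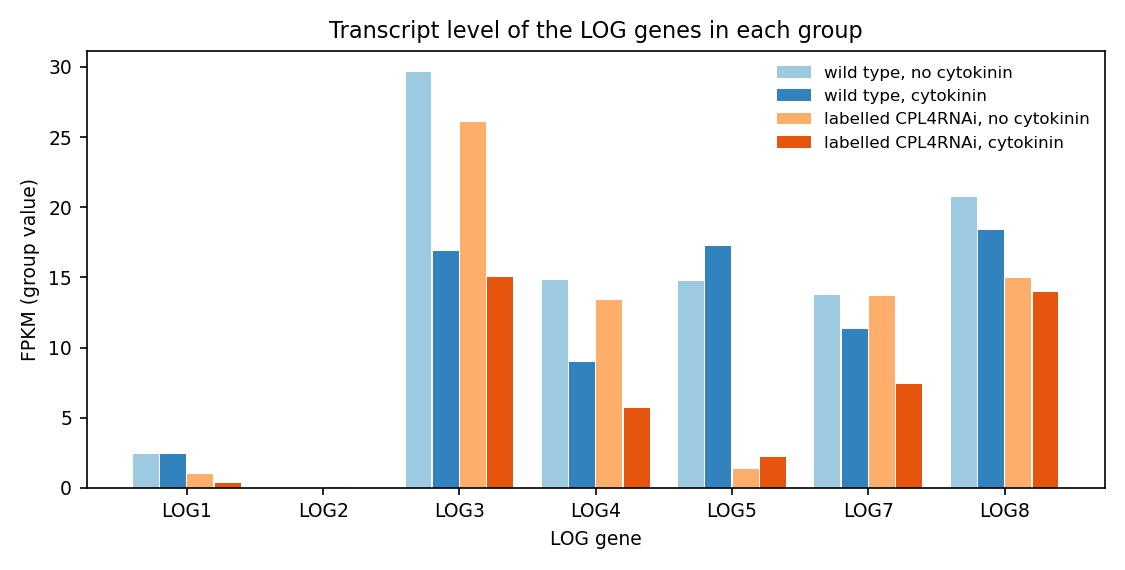
Group FPKM of the 7 LOG genes (vertical axis) in the 4 groups (bar colours); each bar is the authors' value for a group, with no error bar because replicates are not given separately. LOG3 and LOG4 are lower with cytokinin in both genotypes, LOG5 falls from 14.8 and 17.2 FPKM in wild type to 1.36 and 2.22 in the groups labelled CPL4RNAi, and LOG2 is at or near 0.

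FPKM is a level per transcript length, so the genes can be ordered within a group. In wild type without cytokinin, LOG3 was highest, ahead of LOG8, and LOG8 was ahead of LOG4, LOG5 and LOG7, which did not differ beyond the 95% bounds of the largest SE their tests allow. LOG1 followed well below. In wild type with cytokinin, LOG8, LOG5 and LOG3 were the highest and did not differ beyond that limit, LOG7 and LOG4 came next and did not differ beyond it either, and LOG1 was lowest. LOG5 thus lay with LOG4 and LOG7 without cytokinin, and with LOG3 and LOG8 in its presence. Between these wild-type groups LOG5 itself was not called, while LOG3 and LOG4 were called lower with cytokinin. In the group labelled CPL4RNAi without cytokinin, LOG3 stood first, LOG8, LOG7 and LOG4 lay together, and LOG5 and LOG1 lay together far below. With cytokinin the same genotype had LOG3 and LOG8 together at the top, then LOG7 and LOG4 together, then LOG5, then LOG1.

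Summed over the 7 genes, the LOG level was 96.2 FPKM in wild type without cytokinin, 75.2 with it, 70.5 in the group labelled CPL4RNAi without it and 44.6 with it. The sum was thus lower with cytokinin by 21.9% in wild type and by 36.7% in the groups labelled CPL4RNAi, and between the highest and the lowest group it dropped by 53.6%. No test belongs to these sums, since they hold group values alone. LOG5 supplied 15.4% and 22.9% of the wild-type sums, and 1.93% and 4.97% of the sums in the groups labelled CPL4RNAi. LOG3 supplied 30.8%, 22.5%, 37.0% and 33.6% in the 4 groups in the same order. The share of LOG8 went with cytokinin from 21.6% to 24.4% in the wild type and, under the label CPL4RNAi, from 21.2% to 31.3%, while LOG8 itself was not called for cytokinin in either genotype.

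**Figure D2:**
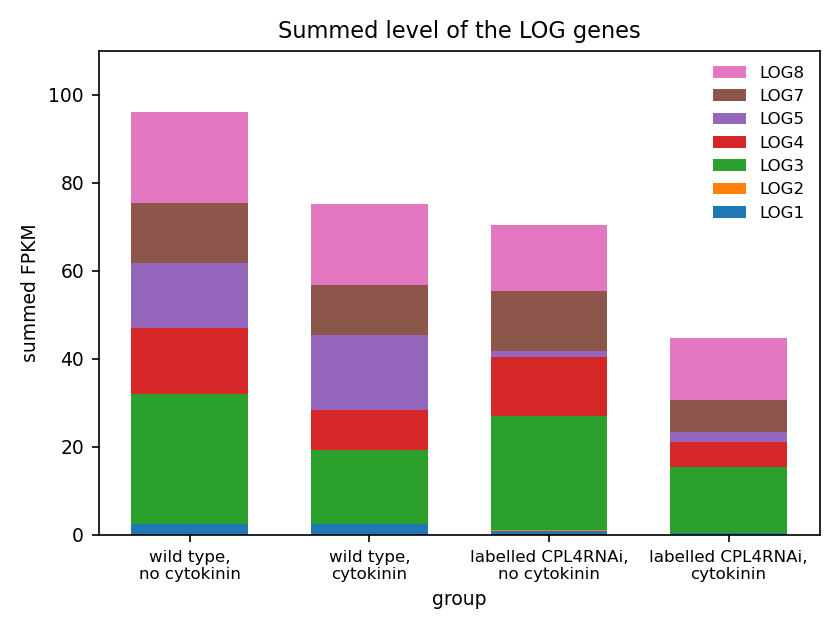
Summed FPKM of the 7 LOG genes (vertical axis) in each of the 4 groups, with the part of each gene in its own colour; LOG2 is too low to be seen. The sum goes from 96.2 FPKM in wild type without cytokinin to 44.6 in the group labelled CPL4RNAi with cytokinin, and the LOG5 part nearly disappears in that genotype.

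The first comparison asks what cytokinin did in wild type. LOG3 and LOG4 fell and no other LOG gene was called, so 2 of the 6 tested LOG genes were called lower, where 10.3% of the 18827 tested features were called, 3.71% lower and 6.58% higher. LOG3 fell by 0.81 on the log2 scale (SE at most 0.20), from 29.7 to 16.9 FPKM. LOG4 fell by 0.72 (SE 0.20; q = 0.0018 in the authors' deposited table). LOG3 and LOG4 are the pair closest in sequence. LOG7 had a log2 fold of −0.28 (SE 0.14) and LOG8 of −0.18 (SE 0.14), and neither was called. LOG5 had 0.22 (SE 0.13) and LOG1 −0.02 (SE 0.25), with bounds of −0.52 to 0.47 for LOG1, so a change of up to about that size in either direction could not have been seen. The median log2 fold of the 6 was −0.23, against 0.02 for all tested features.

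In the groups labelled CPL4RNAi, cytokinin went with lower levels of LOG1, LOG3, LOG4 and LOG7 and a higher level of LOG5. Here 4 of 6 tested LOG genes were called lower and 1 higher, where 17.3% of 19156 tested features were called, 8.88% lower and 8.42% higher. LOG4 fell by 1.23 (SE at most 0.30), from 13.4 to 5.72 FPKM, LOG7 by 0.89 (SE at most 0.22) and LOG3 by 0.80 (SE at most 0.20). LOG1 fell by 1.45 (SE 0.58), from 0.991 to 0.364 FPKM, with q = 0.036 in the authors' deposited table. LOG5 rose by 0.71 (SE 0.29), from 1.36 to 2.22 FPKM, with q = 0.044 in the authors' deposited table. These calls for LOG1 and LOG5 were both lost at a q-value of 0.01 and when the adjustment was made within this comparison alone. LOG8 had −0.10 (SE 0.15) and was not called. The median of the 6 was −0.84, against 0.01 for all tested features. Of the 7 root markers, cytokinin lowered 5 in wild type and 6 under the label CPL4RNAi, and raised 0 in either. Of the 6 xylem markers, 5 rose and 0 fell in wild type, and 6 fell under that label. Of the 2 shoot epidermis markers, 2 fell in wild type and 1 under that label. In wild type 3.71% of all tested features fell and 6.58% rose. The part of these cell types in the cytokinin folds of the LOG genes was not tested.

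LOG3 therefore had nearly the same cytokinin fold in both genotypes, −0.81 and −0.80, although the 2 comparisons share no group. The difference between genotypes was tested for each gene from the 4 groups together, with a normal test adjusted by Benjamini-Hochberg over 18509 features, of which 2.48% were called, 0.470% with a higher and 2.01% with a lower fold under the label CPL4RNAi. None of the 6 LOG genes was called (0 of 6). An unadjusted p under 0.05 was found for 2 of them, LOG1 and LOG7, and for 2155 of the 18509 features. The cytokinin fold of LOG1 was lower by 1.42 (SE 0.63) in the groups labelled CPL4RNAi, with 95% bounds of −2.66 to −0.19. That of LOG7 was lower by 0.61 (SE at most 0.26), and that of LOG4 had a difference of −0.50 (SE 0.29). LOG5 had a difference of 0.49 (SE 0.32). For LOG3 the difference was 0.02 with bounds of −0.35 to 0.38, and for LOG8 it was 0.08 with bounds of −0.32 to 0.48. The adjusted p-values of the 6 genes lay between 0.27 for LOG7 and 0.998 for LOG3, with 0.29 for LOG1. LOG7 was called for cytokinin in one genotype and not in the other, and by this test that does not show a difference between them.

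**Figure D3:**
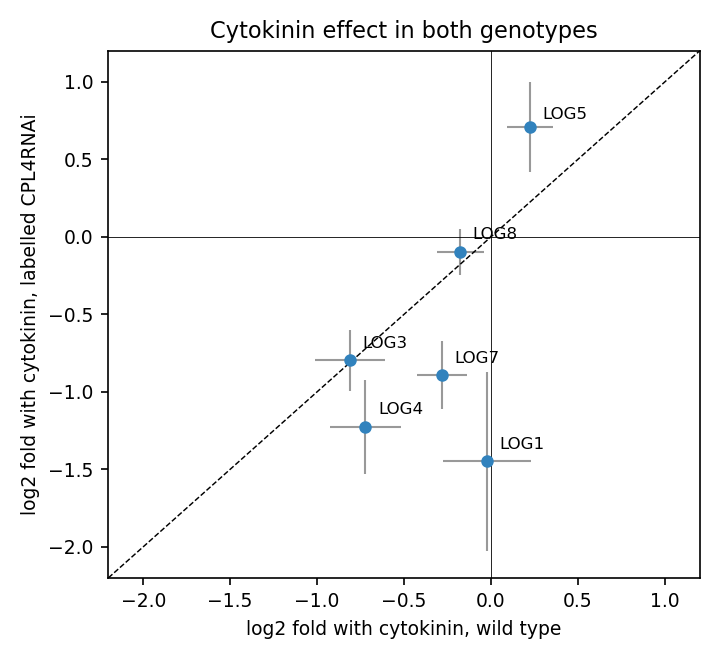
Log2 fold with cytokinin in wild type (horizontal axis) against that in the groups labelled CPL4RNAi (vertical axis) for the 6 tested LOG genes, with bars of 1 SE (the largest possible SE where the p-value is at its floor); the dashed line marks equal folds. LOG3 and LOG8 lie near the line, LOG4, LOG7 and LOG1 below it and LOG5 above it.

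The genotype comparison without cytokinin asks how the labelled genotypes differ on medium that lacks the hormone. Here 3 of 6 tested LOG genes, LOG5, LOG1 and LOG8, were lower under the label CPL4RNAi, where 44.1% of 19277 tested features were called, 21.5% lower and 22.5% higher. LOG5 fell by 3.44 (SE at most 0.85), from 14.8 to 1.36 FPKM, which is 10.9-fold. Of 19230 features with a fold, 53 including LOG5 (0.276%) fell as far or further. LOG1 fell by 1.303 (SE 0.37; q = 0.0020 in the authors' deposited table). LOG8 fell by 0.47 (SE 0.14; q = 0.0034 in the authors' deposited table), a change of 1.39-fold, so that this call is lost where a 2-fold change is asked for. The pair that fell with cytokinin was not called here: LOG3 had −0.19 (SE 0.12) and LOG4 −0.15 (SE 0.18). LOG7 had −0.01, at 13.7 FPKM in both groups. The median of the 6 was −0.33, against 0.00 for all tested features.

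With cytokinin present, 5 of 6 tested LOG genes were lower in the group labelled CPL4RNAi than in wild type and LOG3 was not called, where 49.4% of 19209 tested features were called, 24.7% lower and 24.7% higher. LOG5 fell by 2.96 (SE at most 0.73), from 17.2 to 2.22 FPKM, and LOG1 by 2.73 (SE at most 0.67), from 2.41 to 0.364 FPKM. For LOG5, 83 of 19169 features with a fold (0.433%) fell as far or further. LOG4 fell by 0.65 (SE 0.23), LOG7 by 0.62 (SE 0.17) and LOG8 by 0.39 (SE 0.14). LOG3 had −0.17 (SE 0.14; bounds of −0.45 to 0.10). At a q-value of 0.01 the calls of LOG4 and LOG8 were lost. The median of the 6 was −0.63, against 0.01 for all tested features. Without cytokinin, all 6 xylem markers and all 4 tested shoot meristem markers were higher under the label CPL4RNAi, against 22.5% of all tested features. With cytokinin this held for 1 of 6 (VND7) and 3 of 4, against 24.7%. Of the 2 shoot epidermis markers, 1 was called lower and 0 higher in each medium. The part of these cell types in the lower LOG1, LOG5 and LOG8 was not tested.

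**Figure D4:**
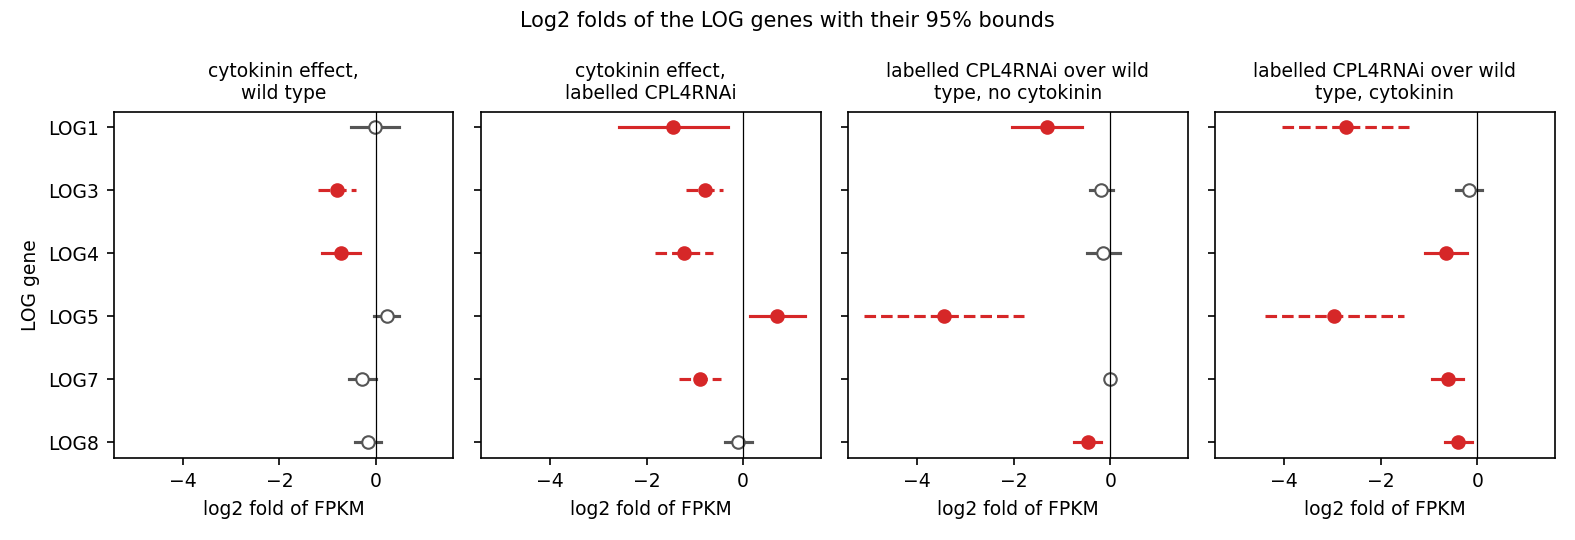
Log2 folds of FPKM (horizontal axes) for the 6 tested LOG genes in 4 comparisons (panels), with 95% bounds as solid lines, or as dashed lines where only the largest possible SE is known; filled red points were called at a q-value of 0.05 and open grey points were not. LOG3 and LOG4 are lower with cytokinin in both genotypes, and LOG5 is lower by 3.44 and 2.96 in the groups labelled CPL4RNAi; LOG7 in the panel without cytokinin has no line because its p-value gives no SE.

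Both remaining pairs cross genotype and medium and share their groups with the comparisons above. Between wild type without cytokinin and the group labelled CPL4RNAi with it, all 6 tested LOG genes were lower in the latter, where 51.6% of 19291 tested features were called, 25.2% lower and 26.4% higher. The falls were 2.75 for LOG1, 2.74 for LOG5, 1.37 for LOG4, 0.98 for LOG3, 0.90 for LOG7 and 0.57 for LOG8. Between wild type with cytokinin and the group labelled CPL4RNAi without it, LOG3 and LOG4 were higher in the latter by 0.63 (SE at most 0.15) and 0.58 (SE 0.19), and LOG4 was not called at a q-value of 0.01. LOG1 and LOG5 were lower there by 1.28 (SE 0.37) and 3.67 (SE at most 0.90). Of the 6 tested LOG genes 2 were thus called higher and 2 lower, where of 19309 tested features 44.0% were called, 21.4% higher and 22.6% lower. LOG7 (0.28, SE 0.15) and LOG8 (−0.29, SE 0.14) were not called.

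The 250 bases before the RefSeq gene start were read for all 7 genes, and those of LOG3, LOG4 and LOG5 are printed because LOG3 and LOG4 fell together with cytokinin and LOG5 moved most between genotypes. In LOG3 and LOG4 the capitals mark the best match of 25 bases between these 2 promoters, and in LOG5 they mark its single CANNTG.
LOG3: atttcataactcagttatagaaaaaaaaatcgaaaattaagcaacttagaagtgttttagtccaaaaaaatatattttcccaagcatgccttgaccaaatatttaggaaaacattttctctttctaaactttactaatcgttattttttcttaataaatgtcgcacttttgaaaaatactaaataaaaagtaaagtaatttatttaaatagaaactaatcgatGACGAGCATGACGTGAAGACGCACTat
LOG4: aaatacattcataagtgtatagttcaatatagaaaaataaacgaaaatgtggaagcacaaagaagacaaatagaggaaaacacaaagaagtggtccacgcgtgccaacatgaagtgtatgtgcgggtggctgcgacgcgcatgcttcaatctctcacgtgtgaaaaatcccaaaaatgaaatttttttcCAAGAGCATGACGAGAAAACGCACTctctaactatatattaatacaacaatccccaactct
LOG5: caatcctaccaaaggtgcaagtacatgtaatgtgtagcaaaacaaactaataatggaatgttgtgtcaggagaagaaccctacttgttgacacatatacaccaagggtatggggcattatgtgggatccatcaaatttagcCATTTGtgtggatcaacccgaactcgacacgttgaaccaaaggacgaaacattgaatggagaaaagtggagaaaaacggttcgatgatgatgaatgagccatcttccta
They lie at LOG3 chr2:15627033-15627282 (- strand), LOG4 chr3:19815667-19815916 (- strand), LOG5 chr4:16745939-16746188 (+ strand), in RefSeq TAIR10.1. The capital blocks of LOG3 and LOG4 shared 21 of 25 bases, at −27 to −3 in LOG3 and −61 to −37 in LOG4 from the gene start. Over the 21 pairs of LOG promoters the best ungapped window of that size held 15 to 21 identical bases, and the next highest, 20, was an A- and T-rich stretch of LOG1 and LOG3. On both strands AGATT, a core recognised by type-B response regulators, was in 3 of the 7 promoters (LOG1, LOG4 and LOG8), against 63.2% of 32808 promoters of the same length. CANNTG, the E-box bound by basic helix-loop-helix factors such as TMO5 and LHW, was in 3 (LOG4, LOG5 and LOG7), against 55.7%. CACGTG, which is also a CANNTG, was in LOG4 alone at −96, against 5.82%. The auxin response motif TGTCTC was in LOG8 alone at −33, against 10.8%, and TGTCGG was in none of the 7, against 4.17%. A match is a description of these letters and not a site of binding.

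The nearest genes on the chromosome were read beside each LOG gene, and none of them overlaps it. LHT7, named as a transporter of the lysine histidine type, lies 6134 bases from LOG5 on the opposite strand and had 13.9, 12.6, 6.50 and 8.21 FPKM in the 4 groups. It was lower by 1.10 and 0.61 in the groups labelled CPL4RNAi, a smaller change than that of LOG5 in the same direction. The other neighbour of LOG5, AT4G35200 at 876 bases, stayed under 0.5 FPKM and was not tested. Beside LOG3, AT2G37200 was not called for cytokinin in either genotype, and neither was AT3G53440, which lies 307 bases from LOG4. Beside LOG2, YLS9 rose with cytokinin by 2.12 and 1.39, while LOG2 itself was at or near 0.

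The genes most like each LOG gene over the 4 groups were found as the smallest distance between centred log2 FPKM among 17382 features with 1 FPKM or more in every group. This is a description over 4 values per gene. LOG3 was closest to AT3G29034 (distance 0.066), to AT4G08780, a peroxidase superfamily gene (0.080), and to AT1G17430 (0.082). LOG4 was closest to AT5G39580, also a peroxidase superfamily gene (0.105), to the aquaporin gene PIP2B (0.106) and to AT4G01350 (0.108). LOG7 was closest to UPI (0.027), to AT1G54740 (0.056) and to the peroxidase gene Prx37 (0.082). LOG8 was closest to AT4G17360 (0.015), to PTAC6 (0.020), a protein of the plastid transcription complex, and to AT3G05937 (0.021). Within a distance of 0.25 there were 2244 features for LOG8, 66 for LOG7, 29 for LOG3, 14 for LOG4 and 2 for LOG5. This distance and the limit of 1 FPKM were the same for every gene. The counts therefore also depend on how far a gene moves, which was 1.48-fold for LOG8 and 12.7-fold for LOG5.

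LOG5 had the fewest features near its pattern among the 5 LOG genes compared. Its nearest were the calmodulin-like gene CML41 (0.230), AT3G41768 (0.230), which is a ribosomal RNA gene, and AT1G21525 (0.276), a transcribed pseudogene. CML41 had 31.4, 33.1, 3.10 and 5.25 FPKM, and AT3G41768 had 984, 1116, 107 and 165 FPKM. The libraries were depleted of ribosomal RNA, and the part of that step in the level of AT3G41768 was not tested. Among the LOG genes themselves, LOG3 and LOG4 were the closest pair (0.38), but LOG7 was nearly as close to each of them (0.40 from LOG4 and 0.40 from LOG3). LOG5 was at least 1.94 from each of the other 5 detected LOG genes. No most-like genes were sought for LOG1, which was under 1 FPKM in both groups labelled CPL4RNAi, or for LOG2.

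Around the LOG step, the genes of cytokinin synthesis were mostly too low to be tested. Of 11 isopentenyltransferase and CYP735A genes 3 were tested for cytokinin in each genotype. Of these CYP735A2, which makes trans-zeatin forms, rose by 1.23 (SE 0.37) in wild type and by 1.19 (SE 0.44) in the groups labelled CPL4RNAi. Its levels were low, from 0.605 to 1.42 FPKM in wild type and from 0.352 to 0.805 FPKM under that label. IPT2 and IPT9, which act on transfer RNA, were called in none of the 4 comparisons within a genotype or a medium, and had 7.16 to 7.92 and 12.0 to 13.4 FPKM. Enzymes that return cytokinin bases and ribosides to nucleotides were counted next: of 6 tested APT and ADK genes, 3 rose with cytokinin in wild type (6.58% of all tested features did), and in the other genotype 2 rose and 1, APT2, fell from 22.7 to 12.2 FPKM (8.42% and 8.88%). Without cytokinin 5 were higher and 1 lower under the label CPL4RNAi, against 22.5% and 21.5% of all tested features. APT3 rose by 0.70 with cytokinin in wild type and by 1.08 under the label CPL4RNAi, and ADK1 by 0.42 and 0.54. Their summed FPKM went from 352.2 in wild type without cytokinin to 574.2 in the group labelled CPL4RNAi with it, the same 2 groups between which the LOG sum went from 96.2 to 44.6.

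Genes of cytokinin inactivation were counted in the comparisons where LOG3 and LOG4 fell. Of 10 tested cytokinin oxidase and glucosyltransferase genes, 6 rose with cytokinin in each genotype, where 6.58% of all tested features did in wild type and 8.42% under the label CPL4RNAi, with CKX1 up by 2.07 and 2.83. CKX4 rose by 4.99 (SE at most 1.23) in wild type, from 0.083 to 2.64 FPKM. CKX6 resembled LOG5 in its genotype difference: it was lower by 2.54 and 1.97 in the groups labelled CPL4RNAi, from 17.4 to 2.99 FPKM without cytokinin. The type-A response regulators, early targets of the active base, rose in 8 of 9 tested in wild type and 7 of 8 in the groups labelled CPL4RNAi, against the same shares of 6.58% and 8.42%. ARR7 was up by 1.81 and 2.88. ARR7 was among the list genes whose cytokinin fold differed between genotypes (difference 1.07, SE at most 0.23, by the normal test used for the LOG genes), as was APT2 (−1.42, SE at most 0.28).

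Of 8 tested receptor and phosphotransfer genes, 1 fell with cytokinin in wild type, the inhibitor AHP6, by 1.69 (SE at most 0.42), a count near the 10.3% of all features called in that comparison. In the groups labelled CPL4RNAi, 2 rose and 2 fell, where 17.3% of all features were called, with AHK4 up by 0.78 and AHP6 down by 1.08. Of 6 tested type-B regulators 0 were called with cytokinin in wild type by Cuffdiff, with 0 at an unadjusted p under 0.05 in the authors' deposited table, and 3 fell in the groups labelled CPL4RNAi, among them ARR11 by 1.16, where 8.88% of all tested features fell. The TMO5 and LHW list holds that pair, known from the root to act above LOG3 and LOG4, and related genes that need not act there. Of its 6 tested genes, 1 rose and 0 fell with cytokinin in wild type, where 6.58% of all tested features rose and 3.71% fell. In the groups labelled CPL4RNAi 0 rose and 2 fell, against 8.42% and 8.88%. T5L1 (a relative of TMO5) rose by 1.303 in wild type and fell by 0.32 under that label. TMO5 was not called in wild type and fell by 0.27 under that label. LOG3 and LOG4 fell in both genotypes. Between genotypes, 3 of the 6 tested genes of this list were higher and 2 lower under the label CPL4RNAi in each medium (44.1% and 49.4% of all tested features were called). TMO5 itself was higher there by 0.75 and 0.37, TMO6 was lower by 1.25 and 1.35, DOF2.1 was lower by 0.94 and 0.55, and LHW was not called. T5L1 was called higher under that label in both media, with 14.4 and 11.5 FPKM against 2.67 and 6.58 in wild type. LOG3 was called in neither medium between genotypes, and LOG4 was called lower only with cytokinin, by 0.65. The part of the list genes in these LOG levels was not tested. Of the cytokinin carriers, ABCG14, which loads cytokinin for transport to the shoot, was higher by 1.44 and 0.89 in the groups labelled CPL4RNAi, and 2 of 4 tested carriers fell with cytokinin there, against the same 8.88%.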

How the data were processed

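Total RNA of 12 samples, 3 in each of 4 groups, was sequenced from stranded libraries depleted of ribosomal RNA with paired reads of 125 nt, per the labels' protocols. Per the submitters' processing notes, bcl2fastq 2.17.1.14, TopHat2 2.0.14, Cuffdiff 2.2.1.3 and TAIR10 were used, and options are not given in the sources used here. The authors' deposited table lists group FPKM and, for all 6 pairs of groups, the p-value and q-value of the test, per the file headers. Values per replicate are not shown, so no spread between replicates could be computed. Replicates are named biological, but whether they came from separate cultures is not said, and the p-values then measure only the spread between these samples, which may be technical. The number of reads per library is unknown, so precision was judged from the SE that each p-value implies.

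From the deposited FPKM, log2 folds were computed without a pseudocount, and the fold column of the table was not used because spreadsheet error text stands in it. The SE of a fold was obtained by dividing the fold by the normal quantile that matches its deposited p-value, and reflects the variance that Cuffdiff modelled. At the p floor of 5e-05 this gives an upper limit. Whether cytokinin acted differently by genotype was tested with a normal test, whose SE was derived from pairs of tests that between them cover the 4 groups (p at or under 0.95, pairs within 10%), or else bounded from the floor. It was adjusted by Benjamini-Hochberg over all 18509 features with a value. The deposited q-values equal such an adjustment over all 115069 tests of the table.

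The members, gene lists and tests were chosen with earlier results of these data known. Named were the 7 LOG genes and CPL4 in every comparison, up to 3 called members of each list with the largest fold and at least 1 FPKM in the higher group (a selection of these is printed), and the 3 features most like each LOG gene with at least 1 FPKM throughout. IPT2 and IPT9, TMO5, LHW, the neighbours of LOG genes and the best-matching promoter windows were added after their values were seen. Coding DNA and promoters were read from RefSeq TAIR10.1, whose genes overlap 32808 of the 32809 table features with the same identifier. Aligned proteins had been planned; coding DNA took their place. The work used Python 3.11.15, numpy 2.4.6, pandas 2.3.3, SciPy 1.17.1, Biopython 1.88 and matplotlib 3.10.9.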

Additional observations from a re-analysis of the deposited data

How the results depend on the processing

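All 36 log2 folds kept their direction when recentred on the median of features at 5 FPKM or more, a shift of at most 0.028. A pseudocount of 1 cannot turn the direction of a fold, so the 36 values recomputed with it are no test of direction. Requiring a 2-fold change left 0 of 2 called LOG genes for cytokinin in wild type, 2 of 5 in the groups labelled CPL4RNAi, 2 of 3 for the genotypes without cytokinin (LOG8 lost), 2 of 5 for them with cytokinin, 3 of 6 for the group labelled CPL4RNAi with cytokinin against wild type without, and 2 of 4 for the last pair, since most LOG folds are smaller than that. At a q-value of 0.01 the count went from 5 to 3 for cytokinin in the groups labelled CPL4RNAi from 5 to 3 for the genotypes with cytokinin (LOG4 and LOG8 lost), and from 4 to 3 for the last pair (LOG4 lost). The former was also 3 with adjustment within the comparison, with at least 1 FPKM in the higher group, and with protein-coding nuclear genes alone, LOG1 and LOG5 being lost each time; the last 3 adjust over fewer tests. Without its highest gene (LOG8 in wild type with cytokinin, otherwise LOG3) the summed level was 66.5, 56.8, 44.4 and 29.7 FPKM in the order used above. With at least 5 FPKM in each group, LOG5 leaves the search for like genes, and 7 of the 12 found for LOG3, LOG4, LOG7 and LOG8 were shared. No LOG gene was called for the difference between genotypes under any alternative; using p-values up to 0.99, a choice made after seeing the data, gave LOG7 an SE of 0.21 and an adjusted p of 0.10.

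No paired analysis was possible because the table holds no value per replicate, and leaving out replicates could not be run for the same reason. Depth per library is unknown, so its limit could not be set. LOG2 was too low for any test, and the largest possible SE of a LOG1 fold was 0.68 and of a LOG5 fold 0.90 on the log2 scale.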
